A study of Mus musculus with 6 samples.

Results

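The mitochondrial genome of the mouse encodes 37 genes, and all of them were examined here. They were taken by the symbol prefix mt- from the 54532 genes of the deposited tables, without use of any measured value, and comprise 22 transfer RNA (tRNA) genes, 2 ribosomal RNA (rRNA) genes and 13 protein-coding (mRNA) genes. The tables come from total RNA of cervical cord of C57BL/6 mice, in 6 libraries. Of these libraries, 3 came from controls and 3 from mice with allergic contact dermatitis (ACD), a T cell-driven skin inflammation. The allergen was squaric acid dibutylester (SADBE), of which 20 µl at 1% in acetone was painted on the shaved belly daily for 3 days. After a gap of 5 days the ACD mice were challenged with the same volume and strength on the shaved nape for 3 days, while the controls received the acetone vehicle. The labels leave unclear whether the controls had been sensitised too, and the age of the mice is not given in the sources used here. Each library is taken as 1 mouse and is called control 1 to 3 or ACD 1 to 3.

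Mitochondrial DNA is transcribed from both strands into long precursor RNAs that carry several genes each. The tRNAs lie between most of the other genes, and cutting them out, by the mitochondrial RNase P at the 5′ end and by ELAC2 at the 3′ end, releases the rRNAs and mRNAs. The rRNAs form the core of the mitochondrial ribosome, the tRNAs bring it the amino acids, and the mRNAs encode subunits of the respiratory chain and of ATP synthase, on which neurons depend for most of their ATP.

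The tRNA sequences below are shown because the results turn on them. They are the 3 that passed the test between ACD and control (mt-Tl1, mt-Te, mt-Tm) and the most read tRNA (mt-Tp). Then come 4 that fell in the same test only when ACD 2 was left out (mt-Tn, mt-Tc, mt-Th, mt-Tl2). The pair with no read in any library (mt-Tf, mt-Td) comes last. All are GENCODE M21 gene sequences on GRCm38, the build also called mm10, as DNA letters, 5′ to 3′ in the sense of the tRNA, without the CCA end that is added later. Capitals mark the anticodon, found by a search for a 7-base loop closed by a stem of 5 bases with at least 3 pairs.
mt-Tl1 (leucine, chrM:2676-2750, plus strand): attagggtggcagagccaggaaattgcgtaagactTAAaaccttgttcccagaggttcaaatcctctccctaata
mt-Te (glutamate, chrM:14071-14139, minus strand): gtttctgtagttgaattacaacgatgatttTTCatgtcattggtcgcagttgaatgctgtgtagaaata
mt-Tm (methionine, chrM:3845-3913, plus strand): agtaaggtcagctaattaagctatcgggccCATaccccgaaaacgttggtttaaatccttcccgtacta
mt-Tp (proline, chrM:15356-15422, minus strand): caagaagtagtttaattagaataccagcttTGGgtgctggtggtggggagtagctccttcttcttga
mt-Tn (asparagine, chrM:5089-5159, minus strand): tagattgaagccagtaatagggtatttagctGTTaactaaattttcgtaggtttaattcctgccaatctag
mt-Tc (cysteine, chrM:5192-5257, minus strand): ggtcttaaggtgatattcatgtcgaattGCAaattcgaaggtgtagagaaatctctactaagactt
mt-Th (histidine, chrM:11546-11612, plus strand): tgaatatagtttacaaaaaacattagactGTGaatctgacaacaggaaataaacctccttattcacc
mt-Tl2 (leucine, chrM:11671-11741, plus strand): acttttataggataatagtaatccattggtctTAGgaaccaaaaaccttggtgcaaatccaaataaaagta
mt-Tf (phenylalanine, chrM:1-68, plus strand): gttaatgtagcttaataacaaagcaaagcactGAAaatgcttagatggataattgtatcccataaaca
mt-Td (aspartate, chrM:6942-7011, plus strand): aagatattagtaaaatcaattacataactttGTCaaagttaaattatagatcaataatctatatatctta
The leucine tRNAs mt-Tl1 and mt-Tl2 read different codon families, by pairing TTA and CTA. Across the 22 tRNA genes the length ran from 59 to 75 bases, and the GC content was lowest in mt-Td, at 17.1%, and highest in mt-Tm, at 44.9%.

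The libraries held 16514190 to 21485133 reads assigned to genes, as recovered from the deposited FPKM (a read level per kilobase of gene length and per library size). The dissection can hold tissue other than cord, and the marker sums showed some. Markers of neurons, oligodendrocytes and astrocytes were present in every library. The 4 white fat markers (Adipoq, Plin1, Lep, Cfd) summed to 41.8 FPKM in control 1 and to 0.0358 to 0.617 in the other libraries, and Ucp1, which defines brown fat, stood at 51.8 FPKM in control 1, at 0 in control 2, control 3 and ACD 1, and at 0.0302 and 0.10 in the others. The 6 skeletal muscle markers summed to 25.9 FPKM in control 2, to 6.46 and 4.89 in the other controls, and to 2.15 to 3.07 in ACD. The marker sums of oligodendrocytes (3913 to 6045 FPKM in control, 6092 to 7226 in ACD), Schwann cells (67.0 to 126 and 197 to 293), blood (100 to 389 and 481 to 772), astrocytes (690 to 811 and 899 to 970) and microglia (69.6 to 85.1 and 87.1 to 95.9) did not overlap between the groups. In these lists Gfap among 5 astrocyte markers and 1 of 5 microglial markers passed the test, and none of the oligodendrocyte, Schwann cell or blood markers did. Over all genes tested 1.81% rose, 2.53% fell and the groups were apart in 28.6%. The members of these lists that overlapped between the groups were Mbp, Mog, Mag, Hba-a2, Slc1a2, Aldh1l1, Gja1, P2ry12 and Csf1r. Of these, Hba-a2 and Slc1a2 were lower in ACD (log2 differences -0.24 and -0.055) and did not pass. The marker sums of neurons (697 to 853 FPKM in control, 850 to 858 in ACD) and endothelium (71.9 to 80.9 and 69.3 to 103) overlapped as well. The 8 RNAs kept in the nucleus summed to 348 to 395 FPKM in control and 97.8 to 139 in ACD. Of the 7 tested 5 fell, beside 2.53% of all genes tested. The part of any of these in the mitochondrial results was not tested, and in RNA from whole tissue fewer cells of a type and less RNA per cell cannot be told apart.

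Mitochondrial genes took 6.65% ± 0.894 of all gene-assigned reads in control and 6.09% ± 0.619 in ACD (SD, n = 3 each), with overlapping libraries. Most of these reads lay in mRNA genes, at 89.5% ± 0.582 of the mitochondrial reads in control and 88.9% ± 0.0777 in ACD. The rRNA genes took 10.2% ± 0.584 and 10.8% ± 0.0317, and the tRNA genes 0.298% ± 0.00693 and 0.307% ± 0.0659. Relative to all reads, the tRNA genes stood at 0.0198% ± 0.00235 in control and 0.0189% ± 0.00563 in ACD. The wider ACD spread came with ACD 2, where tRNA genes held 5447 reads, against 2989 in ACD 1 and 2883 in ACD 3.

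**Figure D1:**
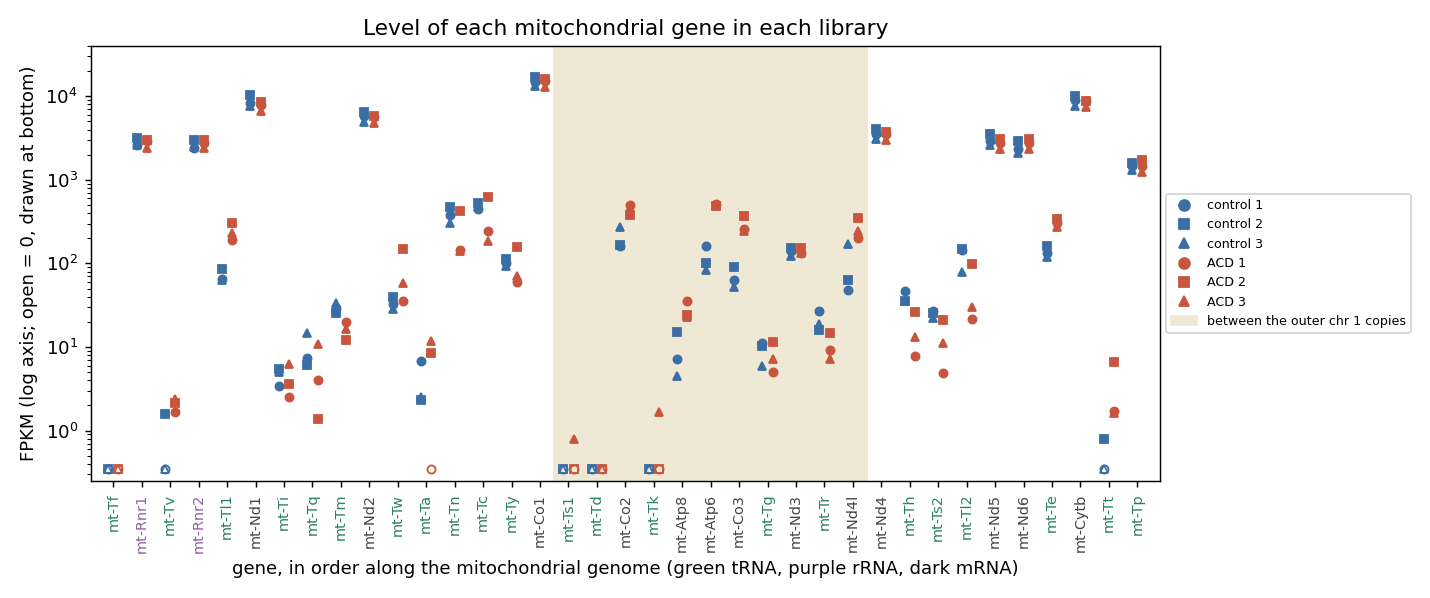
FPKM of each mitochondrial gene in each library (log axis), in order along the genome; blue marks are the control and red marks the ACD libraries, and open marks at the bottom stand for 0. The mRNA genes wholly outside the stretch have control means of 2430 to 8915 FPKM and the 6 mRNA genes inside it of 8.93 to 200.

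Per length, control cord showed a wide range along the genome, as the plot of levels in genome order shows. The highest gene was mt-Co1, the catalytic subunit of cytochrome oxidase, at 15068 ± 1809 FPKM (control mean ± SD, n = 3). It was followed by mt-Cytb (8915 ± 1147), the cytochrome b of complex III, and by mt-Nd1 (8742 ± 1481) and mt-Nd2 (5786 ± 816), subunits of complex I. The rRNAs ranked below these, at 2804 ± 351 FPKM for mt-Rnr1 and 2614 ± 342 for mt-Rnr2, a difference smaller than the spread between mice. The tRNA genes ran from 0 to 1464 FPKM in the control mean. mt-Tp, the proline tRNA, next to the control region where no gene is annotated, was the highest at 1464 ± 142, followed by mt-Tc (480 ± 41.5) and mt-Tn (386 ± 85.5), which are neighbours 32 bases apart. These 3, all on the minus strand, held 78.9% ± 0.910 of the tRNA reads of a control library. The 8 minus-strand tRNA genes had 18745 reads over the 6 libraries and the 14 plus-strand ones 3134. Whether counting used strand is not given in the sources used here, so reads of a gene and of a transcript on the opposite strand cannot be told apart, and, as background, mature tRNAs are shorter than the fragments most RNA-seq protocols keep.

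The rRNA genes did not differ between ACD and control beyond the spread between mice. mt-Rnr1, the RNA of the small ribosomal subunit (chrM:70-1024), was read at 2611, 3209 and 2591 FPKM in control 1 to 3 and at 2894, 2975 and 2423 in ACD 1 to 3. mt-Rnr2, that of the large subunit (chrM:1094-2675), was at 2391, 3008 and 2442 in control and at 2773, 3004 and 2390 in ACD. In both genes the groups overlapped, and the highest control was control 2. On the log2(FPKM + 0.1) scale the ACD minus control difference was -0.02 for mt-Rnr1 (SE 0.12, 95% interval -0.31 to 0.27, adjusted p = 0.947, limma) and 0.06 for mt-Rnr2 (SE 0.13, -0.24 to 0.36, adjusted p = 0.816). Of the 2 rRNA genes 0 passed in limma, 0 had an unadjusted p under 0.05, and 0 passed with voom on the recovered reads, against 4.34% of all 21369 genes called in either direction. The sign of both differences turned when some single libraries were left out, and that of mt-Rnr2 also when the libraries were scaled to the summed nuclear genes, which moved the median of all genes from -0.01 to -0.13.

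The level of mt-Rnr2 relative to mt-Rnr1 was 91.6, 93.7 and 94.2% in control and 95.8, 101 and 98.6% in ACD, so that each ACD library lay above each control library. In the precursor the large rRNA gene lies after the small one, with mt-Tv, the valine tRNA, between them. The level of mt-Rnr1 relative to mt-Co1 was 18.6% ± 0.862 in control and 18.9% ± 0.299 in ACD and overlapped between the groups. That of mt-Rnr2 relative to mt-Co1 was 16.2, 17.7 and 18.2% in control and 18.3, 18.7 and 18.7% in ACD, with the groups apart.

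Of the 20 tRNA genes with reads, 2 rose in ACD, 1 fell and 17 did not pass (limma, adjusted p under 0.05). With voom 2 rose and 1 fell, which was mt-Th and not mt-Tm. Over all genes tested 1.81% rose and 2.53% fell in limma, and with voom 742 rose and 907 fell of 20532. The median log2 difference was -0.23 over the 20 tRNA genes and -0.01 over all genes tested. With each library left out in turn the tRNA median ran from -0.46 without ACD 2 to 0.046 without ACD 1. Only 13 of the 20 had a mean of at least 10 reads, and their median was -0.65. Over all 35 mitochondrial genes with reads the groups were apart in 13, where this held for 28.6% of all genes. In 4 tRNA genes the 3 ACD values lay above the 3 control values and in 4 below them, beside 13.1% and 15.5% of all genes. The 4 above include mt-Tv and mt-Tt, which had 0 to 2 reads in each control library. Among the 13 with at least 10 mean reads, 2 lay above and 4 below.

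The largest rise among the tRNAs that passed was in mt-Tl1, the leucine tRNA whose gene follows directly on mt-Rnr2. It was read at 64.6, 85.4 and 63.8 FPKM in control 1 to 3 and at 188, 302 and 230 FPKM in ACD 1 to 3, from 82, 119 and 83 reads and 245, 458 and 315 reads. Each ACD library lay above each control library, and ACD 2 was the highest. The group means were 71.3 ± 12.2 and 240 ± 57.3 FPKM, a log2 difference of 1.74 (SE 0.19, 95% interval 1.29 to 2.18, adjusted p = 0.00923). As background, the gene of mt-Tl1 also holds the binding site of MTERF1, a transcription termination factor.

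The other tRNA that rose was mt-Te, which carries glutamate and lies on the minus strand between mt-Nd6 and mt-Cytb. Its levels were 132, 161 and 118 FPKM in control 1 to 3 and 303, 344 and 276 FPKM in ACD 1 to 3, from 141 to 206 and 349 to 481 reads. The groups did not overlap. The log2 difference was 1.18 (SE 0.13, 95% interval 0.87 to 1.49, adjusted p = 0.00980). Together mt-Tl1 and mt-Te made up 7.40% ± 0.429 of the tRNA reads in control and 20.2% ± 2.90 in ACD. With each library left out in turn, control 1 with its fat markers and control 2 with its muscle markers included, the adjusted p lay between 0.0201 and 0.0422 for mt-Tl1 and between 0.0194 and 0.0434 for mt-Te.

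The tRNA that fell was mt-Tm, the methionine tRNA that both starts and extends mitochondrial proteins, just before mt-Nd2. It was read at 29.1, 25.7 and 33.4 FPKM in control and at 20.1, 12.2 and 16.6 FPKM in ACD, from 33 to 40 and 17 to 24 reads. All ACD libraries lay below all controls, and ACD 2 was the lowest. The log2 difference was -0.87 (SE 0.18, 95% interval -1.31 to -0.44), with an adjusted p of 0.0488. This call was at the edge of the threshold and was lost with any single library left out (adjusted p 0.0542 to 0.131).

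**Figure D2:**
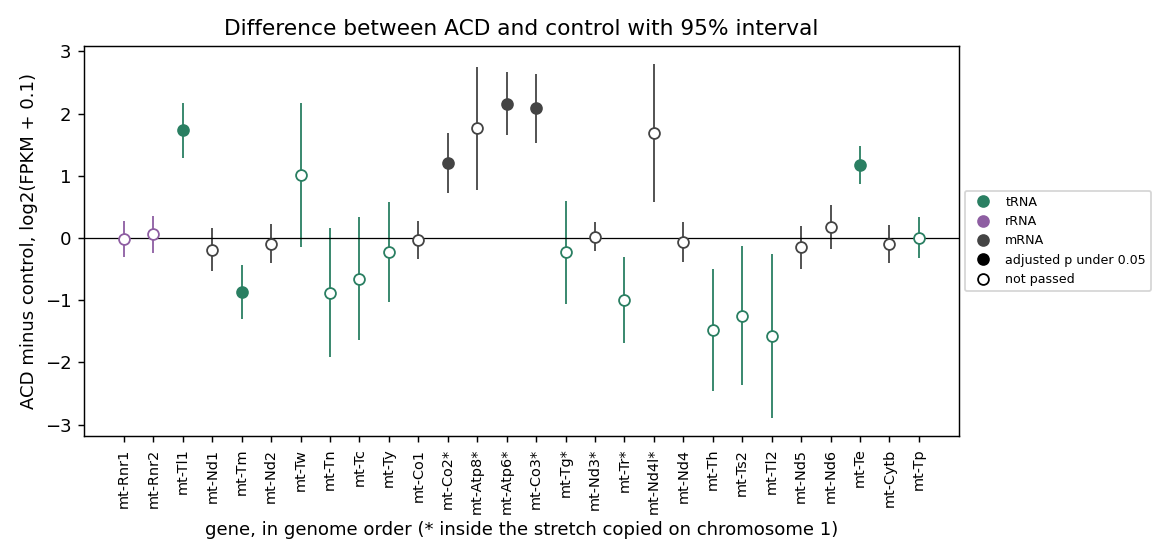
ACD minus control difference on the log2(FPKM + 0.1) scale, with its 95% interval, for the 2 rRNA genes, the 13 mRNA genes and the 13 tRNA genes with at least 10 mean reads, in genome order. Filled marks passed at an adjusted p under 0.05 (mt-Tl1, mt-Te, mt-Co2, mt-Atp6, mt-Co3 higher, mt-Tm lower) and an asterisk marks genes inside the stretch copied on chromosome 1.

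The plot of differences along the genome shows the tRNAs that passed in 3 separate places, after mt-Rnr2, before mt-Nd2 and between mt-Nd6 and mt-Cytb. Of the 12 tested tRNA genes on the plus strand 1 rose and 1 fell, and of the 8 on the minus strand 1 rose. In the cluster between mt-Nd2 and mt-Co1, mt-Tn, the asparagine tRNA, was at 380, 474 and 303 FPKM in control and at 143, 428 and 142 in ACD. mt-Tc, the cysteine tRNA, was at 443, 525 and 472 in control and 246, 620 and 185 in ACD. mt-Ty, the tyrosine tRNA, was at 102, 112 and 92.1 in control and 60.2, 156 and 70.2 in ACD. In these 3 genes ACD 1 and ACD 3 lay below every control and ACD 2 lay among or above the controls, so the groups overlapped and none passed (adjusted p 0.289, 0.407 and 0.736). mt-Tw, the tryptophan tRNA that opens this cluster on the other strand, stood at 32.6, 40.2 and 28.4 FPKM in control and at 35.3, 149 and 58.7 in ACD, again with ACD 2 the highest (adjusted p = 0.275).

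The cluster of mt-Th, mt-Ts2 and mt-Tl2 between mt-Nd4 and mt-Nd5 also had ACD 2 as its highest ACD library. mt-Th, the histidine tRNA, was at 46.8, 35.3 and 35.3 FPKM in control and at 7.74, 26.5 and 13.1 in ACD. mt-Ts2, a serine tRNA that lacks the D arm, was at 27.1, 25.5 and 22.5 in control and 4.89, 20.9 and 11.1 in ACD. mt-Tl2, the second leucine tRNA, was at 145, 148 and 79.6 in control and 21.9, 97.4 and 30.03 in ACD. All ACD values of mt-Th and mt-Ts2 lay below all controls, and ACD 2 came nearest to them. In mt-Tl2, ACD 2 lay above control 3, while ACD 1 and ACD 3 lay below all controls. The log2 differences were -1.47, -1.25 and -1.57, and none passed in limma (adjusted p 0.0991, 0.186 and 0.163). With voom on all 6 libraries mt-Th fell (log2 difference -1.40, adjusted p = 0.0333).

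Relative to the mean of ACD 1 and ACD 3, ACD 2 was 3.17-fold for mt-Tw, 3.00-fold for mt-Tn, 2.88-fold for mt-Tc, 2.39-fold for mt-Ty, 2.55-fold for mt-Th, 2.62-fold for mt-Ts2 and 3.75-fold for mt-Tl2. The same ratio was 1.89 for mt-Tg, 1.75 for mt-Tr, 1.44 for mt-Tl1, 1.19 for mt-Te, 1.29 for mt-Tp and 0.663 for mt-Tm. Without ACD 2, with ACD 1 and ACD 3 as the only ACD mice, 4 tRNA genes fell. Their log2 differences were -1.41 for mt-Tn (adjusted p = 0.0333), -1.17 for mt-Tc (adjusted p = 0.0309), -1.94 for mt-Th (adjusted p = 0.0309) and -2.21 for mt-Tl2 (adjusted p = 0.0384). In that fit 0.884% of all genes tested fell, and mt-Tm no longer passed (adjusted p = 0.0840). With all libraries none of these 4 passed in limma, and with any other library left out no tRNA gene fell. ACD 2 held the highest ACD value of each of the 4, so leaving it out could only lower their ACD means. That fit is therefore no separate support for a fall. mt-Tp, the most read tRNA, was at 1470, 1602 and 1319 FPKM in control and at 1478, 1744 and 1225 in ACD, overlapped, and did not pass (log2 difference 0.01, 95% interval -0.32 to 0.34, adjusted p = 0.982).

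**Figure D3:**
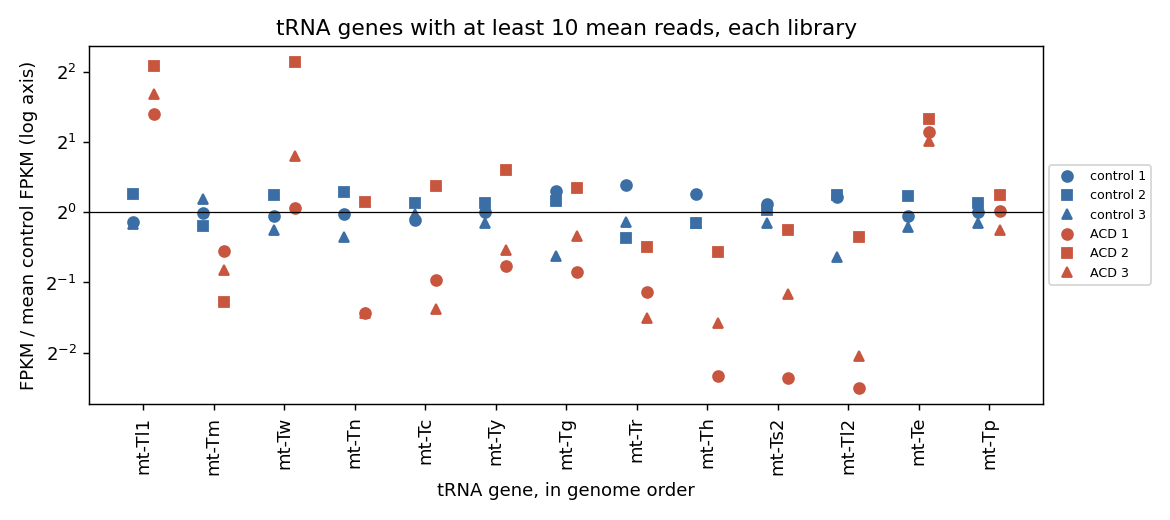
FPKM of the 13 tRNA genes with at least 10 mean reads in each library, divided by the control mean (log axis), in genome order; blue marks are control and red marks ACD libraries. ACD 2 (red squares) lies apart from ACD 1 and ACD 3 in mt-Tw, mt-Tn, mt-Tc, mt-Ty, mt-Th, mt-Ts2 and mt-Tl2, and the 3 ACD libraries lie together above the controls in mt-Tl1 and mt-Te.

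The remaining tRNA genes had few or no reads. mt-Tf (phenylalanine), which opens the gene order, and mt-Td (aspartate) had 0 reads in all 6 libraries, which allows up to 2.18 to 2.61 FPKM for mt-Tf and 2.12 to 2.53 for mt-Td (3 reads per library, counting error only). mt-Tv (valine) had 0, 2 and 0 reads in control and 2, 3 and 3 in ACD. mt-Tt (threonine) had 0, 1 and 0 reads in control and 2, 9 and 2 in ACD. mt-Ts1 (the other serine tRNA) had 1 read and mt-Tk (lysine) 2 reads in all, each in ACD 3. These counts are at or under the 3-read floor in nearly every library and give no interpretable fold. mt-Ti (isoleucine) had 4, 7 and 6 reads in control and 3, 5 and 8 in ACD. mt-Tq (glutamine) had 9, 8 and 18 and then 5, 2 and 14, and mt-Ta (alanine) 8, 3 and 3 and then 0, 12 and 15. All 3 overlapped between the groups. mt-Tg (glycine) had 6 to 16 reads per library and overlapped as well (log2 difference -0.23, adjusted p = 0.743). mt-Tr, the arginine tRNA, had 31, 20 and 22 reads in control and 11, 20 and 9 in ACD. Its ACD values in FPKM lay below the controls but did not pass (log2 difference -0.999, adjusted p = 0.106).

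Levels were also set against those of neighbouring genes, library by library. The level of mt-Tl1 was 2.70, 2.84 and 2.61% of that of mt-Rnr2 in control 1 to 3 and 6.79, 10.04 and 9.61% in ACD 1 to 3. Against mt-Nd1, the next gene downstream, it was 0.781, 0.821 and 0.845% in control and 2.42, 3.57 and 3.42% in ACD. Both ratios were close together in the controls and higher in every ACD library, with ACD 1 the lowest of them. The level of mt-Te was 5.69, 5.56 and 5.66% of that of mt-Nd6 in control and 10.8, 11.2 and 11.7% in ACD. Against mt-Cytb on the opposite strand it was 1.53% ± 0.0656 in control and 3.70% ± 0.215 in ACD. The spread of these ratios within a group was small beside the difference between groups. The level of mt-Tm relative to mt-Nd2 was 0.496, 0.393 and 0.678% in control and 0.351, 0.209 and 0.352% in ACD. The other tRNA ratios, mt-Tp to mt-Cytb and mt-Tn to mt-Tc, overlapped between the groups. The level of mt-Tp was 16.5% ± 0.541 of that of mt-Cytb in control and 17.7% ± 1.68 in ACD, and that of mt-Tn was 80.1% ± 13.9 of that of mt-Tc in control and 68.03% ± 9.58 in ACD. All 12 ratios computed are given as descriptions, without a test.

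mt-Nd6, a subunit of complex I and the only mRNA encoded on the minus strand, was at 2430 ± 415 FPKM in control and 2738 ± 356 in ACD and did not pass by itself (log2 difference 0.18, SE 0.15, adjusted p = 0.531). Relative to mt-Nd5, its overlapping neighbour on the plus strand, it was 78.8, 81.2 and 80.3% in control and 102, 98.6 and 101% in ACD. Relative to mt-Cytb it was 25.9, 28.8 and 26.9% in control and 31.9, 34.5 and 32.0% in ACD. In both ratios the groups were apart.

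**Figure D4:**
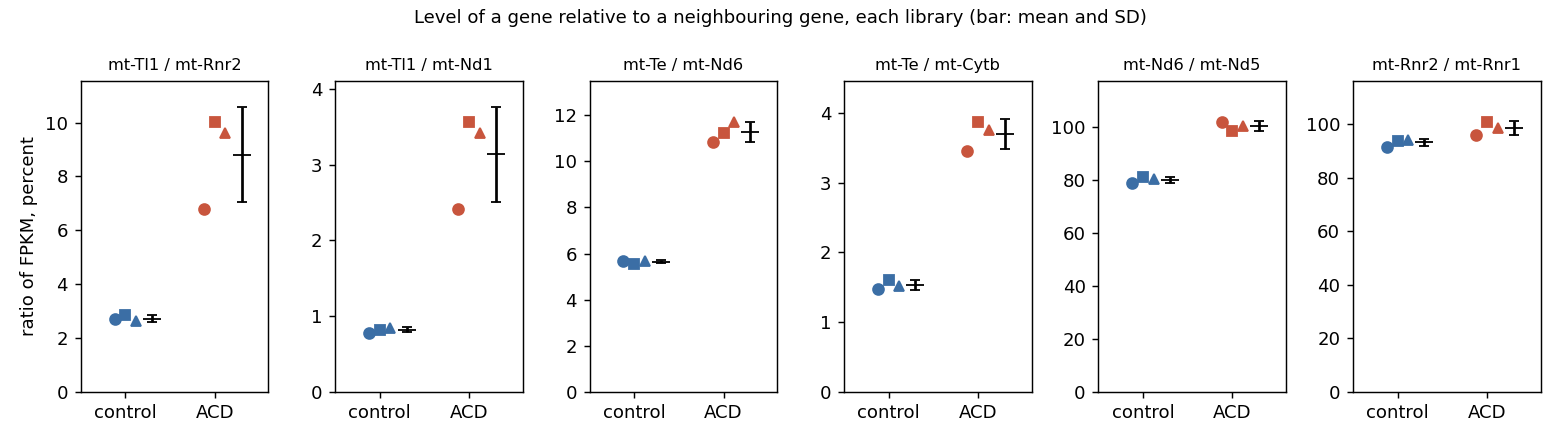
Level of a gene as a percentage of that of a neighbouring or adjacent gene (ratio of FPKM), in each control (blue) and ACD (red) library, with the mean and SD of the group in black. The 6 pairs were chosen among the 12 computed after their values were seen, and in them each ACD library lies above each control library.

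Among the mRNAs 3 of 13 rose in ACD and 0 fell, beside 1.81% and 2.53% of all genes tested, and the median log2 difference was 0.02. At an unadjusted p under 0.05, 5 were higher and 0 lower, beside 2234 and 2527 of all 21369 genes tested. With voom 4 rose and 0 fell, beside 742 and 907 of 20532. All 3 mRNA genes that rose in limma lie in a stretch of the genome that has a near-identical copy in nuclear DNA. On chromosome 1, 7 annotated pseudogenes (chr1:24611535-24616197, GRCm38) follow the order of chrM:6381-11042, and the alignment of each pair was shifted by at most 1 base from that of the next. Over their aligned bases, the copies of mt-Co2 (Gm28661, 681 bases), mt-Atp6 (Gm10925, 678), mt-Co3 (Gm28437, 783), mt-Nd4l (Gm10222, 294) and the first 876 bases of mt-Nd4 (Gm28439) had 0 mismatches. That of mt-Nd3 (Gm28438) had 1 in 345 bases and that of the last part of mt-Co1 (Gm29216) had 6 in 492. A read from such a gene fits both places, and how reads with more than 1 match were counted is not given in the sources used here, so the levels of these genes are uncertain.

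The stretch spans 4662 bases and holds 11 genes whole, the mRNAs mt-Co2, mt-Atp8, mt-Atp6, mt-Co3, mt-Nd3 and mt-Nd4l and the tRNAs mt-Ts1, mt-Td, mt-Tk, mt-Tg and mt-Tr. The 6 mRNAs inside it had control means of 8.93 to 200 FPKM, and the 5 mRNAs wholly outside it 2430 to 8915. The 5 tRNAs inside had 0 to 113 reads over the 6 libraries, and the 17 outside 0 to 10780. The pseudogene models do not cover the tRNAs, and the sequence between the models was not analysed here. Of the runs of 31 bases in mt-Atp8 only 7.47% occur in a nuclear model, Gm10925, so a copy of the rest was not shown. Outside the stretch, 10.8% of the runs in the tRNA mt-Ty occur in the nuclear gene Cep295, so reads from those runs are uncertain.

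mt-Atp6, a subunit of the proton channel of ATP synthase, was read at 160, 102 and 84.1 FPKM in control and at 510, 486 and 500.0 in ACD. mt-Co3, the third core subunit of cytochrome oxidase, was at 62.9, 91.0 and 52.4 in control and at 256, 370 and 244 in ACD. mt-Co2, which takes electrons from cytochrome c, was at 162, 166 and 270 in control and at 499, 385 and 466 in ACD. In none of the 3 did the groups overlap. mt-Atp6 rose by 2.16 (SE 0.21, adjusted p = 0.00869), mt-Co3 by 2.09 (SE 0.23, adjusted p = 0.0108) and mt-Co2 by 1.21 (SE 0.21, adjusted p = 0.0283) on the log2 scale. The call of mt-Co2 was lost without control 1, control 2, or any of the ACD libraries (adjusted p 0.0596 to 0.103) and held without control 3.

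mt-Atp8, which overlaps mt-Atp6 by 43 bases, had 25, 57 and 16 reads in control and 126, 100 and 86 in ACD, and mt-Nd4l had 242, 347 and 873 in control and 1049, 2119 and 1322 in ACD. Both groups were apart in both genes, with control 3 the highest control of mt-Nd4l, yet neither passed (log2 differences 1.76 and 1.69, adjusted p 0.0664 and 0.0956). mt-Atp8 passed with voom on all 6 libraries (adjusted p = 0.0109) and, in limma, without control 2 (adjusted p = 0.0261), and mt-Nd4l without control 3 (adjusted p = 0.0313). mt-Nd3, also inside the stretch, was at 140 ± 15.4 FPKM in control and 141 ± 10.6 in ACD (log2 difference 0.02, adjusted p = 0.933).

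The 7 nuclear copies rose in limma, beside 1.81% of all genes tested. Their log2 differences were 0.87 for Gm28438 to 1.58 for Gm28661 (adjusted p 0.0111 to 0.0431). In each the 3 ACD libraries lay above the controls, beside 13.1% of all genes tested. The copies are parts of 1 stretch, and their reads cannot be told apart from those of the mitochondrial genes. They are therefore not 7 separate results. Gm28661 had 818, 1190 and 727 reads in control and 3852, 1985 and 2908 in ACD, where its mitochondrial partner mt-Co2 had 1876, 2115 and 3205 and then 5924, 5327 and 5829. With the reads of each pair added together, no call between ACD and control changed in limma. The difference was 1.83 for mt-Atp6 (adjusted p = 0.00381), 1.89 for mt-Co3 (adjusted p = 0.00551), 1.31 for mt-Co2 (adjusted p = 0.0192), 0.15 for mt-Nd3 (adjusted p = 0.388) and 1.58 for mt-Nd4l (adjusted p = 0.0690). A read that fits both places and was counted in neither would be missing from these sums too. How such reads were counted is not given, so the sums do not settle the levels of these genes.

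**Figure D5:**
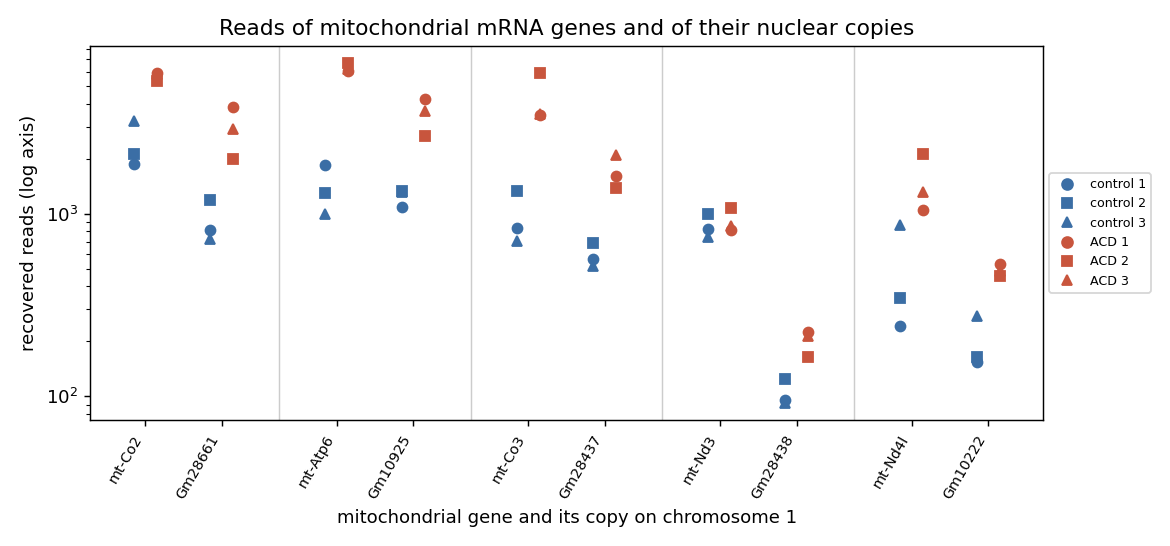
Reads of 5 mitochondrial mRNA genes and of their copies on chromosome 1 in each library (log axis, recovered reads); blue marks are control and red marks ACD libraries. In each copy the ACD libraries lie above the controls, and the same holds for mt-Co2, mt-Atp6, mt-Co3 and mt-Nd4l but not for mt-Nd3.

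Outside the stretch no mRNA passed. The 5 genes mt-Nd1, mt-Nd2, mt-Nd5, mt-Nd6 and mt-Cytb had log2 differences of -0.18 to 0.18 with a median of -0.09. All 5 overlapped between the groups, 0 passed in limma, 0 had an unadjusted p under 0.05 and 0 passed with voom. mt-Nd1 was at 8742 ± 1481 FPKM in control and 7654 ± 879 in ACD, and mt-Cytb at 8915 ± 1147 and 8332 ± 844. mt-Nd5, the longest gene of the genome, was at 3030 ± 489 and 2727 ± 382, and mt-Nd2 at 5786 ± 816 and 5425 ± 609. Of their runs of 31 bases, 16.8% in mt-Nd5, 13.5% in mt-Nd2, 7.36% in mt-Nd6 and 6.55% in mt-Cytb also occur in nuclear models. Reads from those runs are uncertain. The genes that lie partly inside the stretch, mt-Co1 and mt-Nd4, share 63.9% and 62.8% of their runs with nuclear models. For mt-Co1, 45.2% occur in Gm13340 on chromosome 2, apart from the copy on chromosome 1. Neither gene passed. mt-Co1 was at 15068 ± 1809 FPKM in control and 14671 ± 1682 in ACD (log2 difference -0.04, adjusted p = 0.891), and mt-Nd4, a proton-pumping subunit of complex I, at 3574 ± 521 and 3403 ± 391 (log2 difference -0.07, adjusted p = 0.809).

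Nuclear genes that serve mitochondrial RNA, mitochondrial DNA or the mitochondrial stress response were taken in 7 lists. Of their 106 tested genes 1 rose and 2 fell, beside 1.81% and 2.53% of all genes tested, and their median log2 difference was 0.00. At an unadjusted p under 0.05, 17 were higher and 10 lower, beside 2234 and 2527 of all 21369 genes tested. With voom 5 rose and 1 fell, beside 742 and 907 of 20532. The 14 genes of mitochondrial transcription and DNA replication include the polymerase Polrmt, the activator Tfam and the terminators Mterf1a and Mterf1b. Among those of DNA replication are Polg and Twnk. The list had 0 past the threshold with limma (1 higher and 2 lower at an unadjusted p under 0.05, 0 with voom). The gene with the smallest p was the DNA exonuclease Mgme1, at 2.99 ± 0.0139 FPKM in control and 3.98 ± 0.299 in ACD (log2 difference 0.40, adjusted p = 0.0519). The 6 genes that cut out the tRNAs and add their CCA end, among them Trmt10c, Hsd17b10, Elac2 and Trnt1, had 0 past the threshold by limma, by an unadjusted p under 0.05 and by voom. Here the smallest p was that of 1110008L16Rik, the nuclease subunit of RNase P, at 1.32 ± 0.0253 and 1.06 ± 0.0487 FPKM (log2 difference -0.29, adjusted p = 0.234).

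Among the 19 tRNA-modifying genes 2 fell and 0 rose, beside 2.53% of all genes that fell (1 higher and 6 lower at an unadjusted p under 0.05, 0 higher and 1 lower with voom). Qtrt2, a subunit of the enzyme that puts queuine into the wobble position of tRNAs with a GTN anticodon, which in mitochondria are mt-Tn, mt-Td, mt-Th and mt-Ty, went from 2.84 ± 0.161 to 1.80 ± 0.122 FPKM (log2 difference -0.63, adjusted p = 0.0253). Trmt5, which methylates the guanosine after the anticodon in several tRNAs, went from 5.71 ± 0.293 to 4.31 ± 0.0885 (log2 difference -0.40, adjusted p = 0.0350). The 23 genes that charge the tRNAs had 0 past the threshold with limma and 0 with voom (1 higher at an unadjusted p under 0.05). They include Lars2 for leucine (log2 difference 0.01) and Ears2 for glutamate (0.04), the amino acids of the tRNAs that rose, and the smallest p was that of Kars, for lysine (0.22, adjusted p = 0.217).

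The 18 genes of rRNA modification and ribosome assembly had 0 past the threshold with limma and 0 with voom (3 higher and 1 lower at an unadjusted p under 0.05). The smallest p was that of Mrm2, a methyltransferase of the large rRNA, at 7.35 ± 0.581 and 9.24 ± 0.267 FPKM (log2 difference 0.33, adjusted p = 0.0632). The 15 genes of mitochondrial RNA stability and decay had 0 past it with limma and 2 higher with voom (3 higher and 1 lower at an unadjusted p under 0.05), with the smallest p in Rexo2, an exonuclease of short RNAs, at 18.1 ± 1.06 and 22.3 ± 0.840 FPKM (log2 difference 0.30, adjusted p = 0.0573). Of the 13 tested genes of the mitochondrial stress response 1 rose, Atf5, a transcription factor of that response, from 11.2 ± 0.496 to 16.0 ± 1.46 FPKM (log2 difference 0.51, adjusted p = 0.0246). The other 12 did not pass with limma, and the median of the 13 was 0.19. At an unadjusted p under 0.05, 8 of the 13 were higher and 0 lower, beside 2234 and 2527 of all 21369 genes tested. With voom 3 were higher, beside 742 of 20532.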

How the data were processed

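The deposited tables give FPKM for each of the 6 libraries, 1 table per library, computed by the authors. Per the submitters' processing notes, the tools were HISAT2 2.0.5, featureCounts 1.5.0-p3 and DESeq2 1.16.1, with no role named for each, and the genome build was mm10. Not given in the sources used here are the library kit, the read length, the use of strand and the handling of reads with several matches. Of the 54532 genes, 54409 were found in the chromosome annotation of GENCODE M21, which gave exon lengths, coordinates and sequences. FPKM times exon length times 1 factor per library gave whole reads (within 0.05) for 96.7 to 97.0% of the values above 0 and for all 37 mitochondrial genes.

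The sample descriptions gave the groups and replicate numbers and call the samples biological replicates. A linear model of log2(FPKM + 0.1) was fitted in limma 3.58.1 (R 4.3.3), with moderated variances that follow a trend on level and are robust to outliers. It covered 21369 genes, those whose mean FPKM reached 0.1. All 6 libraries were fitted without covariates. The p-values are two-sided, with Benjamini-Hochberg adjustment over all 21369 genes and a threshold of 0.05. A difference on this scale understates the change of low genes. In this fit 927 genes passed. The script was tested on simulated data. Sequences shared with nuclear genes were found as words of 31 bases in the transcripts of GENCODE M21. Python 3.11.15, pandas 2.3.3 and numpy 2.4.6 were used for the tables.

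Every mitochondrial gene is named. From each list of nuclear genes the text names up to 4 past the threshold by size, or the gene with the smallest p, and a few others with their values to say what a list holds. The genes and lists were chosen with earlier results of these data known. The alternatives were other pseudocounts, no filter, TPM scaling, scaling to nuclear genes, voom on the recovered reads, a replicate block, leaving out each library, adding the reads of nuclear copies and, chosen after seeing the data, at least 10 mean reads. Voom stood in for a count test because the deposited unit is FPKM.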

Additional observations from a re-analysis of the deposited data

How the results depend on the processing

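Of 518 values (35 genes, up to 15 alternatives each), 466 kept their direction and their side of the threshold, 17 lost the call, 11 gained it and 24 changed sign. mt-Tl1, mt-Te, mt-Atp6 and mt-Co3 passed in all 15, with adjusted p of 0.000483 to 0.0422, 0.000389 to 0.0434, 0.00381 to 0.0422 and 0.00531 to 0.0434. The levels of mt-Atp6 and mt-Co3 stay uncertain in each, as their reads also fit nuclear copies. mt-Tm lost its call in 11. The count of tRNA genes that fell, 1 with all libraries, was 0 with a pseudocount of 1 or 0.01, with no filter and with the replicate block, and 0 to 4 with a library left out. That of tRNA genes that rose was 2 to 4 with a library left out, as mt-Tv (adjusted p = 0.00880) and mt-Tt (0.0305) passed without control 2. In control these 2 genes had reads in control 2 alone (2 and 1), so without it their control values were all 0. The cause of the changes in count was not tested. Of all genes, 927 passed, 556 with no filter (more genes tested), 1649 with voom, 181 with the replicate block and 180 to 627 with a library left out (fewer samples). The tRNA median was -0.65 with at least 10 mean reads, which leaves out 7 genes. As shares of summed FPKM, which weights by length, tRNA genes took 1.02% in control and 0.951% in ACD, rRNA genes 1.88% and 1.78%, and mRNA genes 16.7% and 15.2%.

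The replicate numbers showed no sign of pairing the libraries, though the correlations below cannot exclude paired handling. Same-numbered deviations correlated at -0.028, 0.015 and 0.003, and not every library correlated best with its own number. With the replicate block mt-Tl1 (adjusted p = 0.0170), mt-Te (0.0195), mt-Atp6 (0.0346) and mt-Co3 (0.0131) passed, mt-Tm (0.0578) and mt-Co2 (0.0560) did not, and mt-Tt (0.0352) did.

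Signs changed only in genes that did not pass. With TPM scaling the log2 difference was -0.037 for mt-Rnr2, -0.078 for mt-Nd3 and -0.089 for mt-Tp, and with scaling to nuclear genes -0.068, -0.11 and -0.12. It was 0.14 for mt-Ta with a pseudocount of 1. With a library left out it ran from -0.075 to 0.082 for mt-Rnr1, from -0.014 to 0.17 for mt-Rnr2, from -0.59 to 0.067 for mt-Ti, from -0.20 to 0.0072 for mt-Nd2, from -1.92 to 1.53 for mt-Ta and from -0.64 to 0.039 for mt-Ty. It ran from -0.12 to 0.057 for mt-Co1, from -0.54 to 0.053 for mt-Tg, from -0.063 to 0.096 for mt-Nd3, from -0.17 to 0.039 for mt-Nd4 and from -0.12 to 0.14 for mt-Tp. Depth limits the 9 tRNA genes with under 10 mean reads, where 1 read is worth more than the FPKM filter.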
